A study of Mus musculus with 6 samples.

Results

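Potassium channel genes, whose symbols begin with Kcn or Hcn, were examined in the tibialis anterior, which lies along the shin, of mice that lacked the histone variant H2A.Z in muscle fibres. The table of gene counts held 98 such genes among 28510, and the 75 with at least 20 read counts summed over all 6 libraries were taken as the group. These are 74 gene names, because Kcnb2 is listed under 2 identifiers. Kcnh3, with 20 counts in all, and Kcnip4, with 26, lay just inside this limit, while Kcnj14, with 19, and Kcnk16, with 13, lay just outside it. A filter on low counts left 66 of the 75 for testing. The 9 without a test were Kcnmb2, Kcnmb4, Hcn3, Kcnab3, Kcnip4, Kcnh3, Kcnh5, Kcnk10 and Kcnrg.

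The study asked how loss of H2A.Z alters transcription in skeletal muscle. All mice were C57BL/6 at 12 months of age. The 3 KO samples were H2A-Z.1-/- and H2A-Z.2-/- and carried HSA Cre, and the 3 WT samples were flox/flox for both genes and are labelled wild type for HSA Cre, so that both groups carried modified alleles of both genes. H2A-Z.1 and H2A-Z.2 are the products of H2afz and H2afv. HSA Cre is driven by the human skeletal actin promoter, which is active in muscle fibres, whereas RNA was taken from the whole muscle with its vessels, nerve branches, connective tissue and immune cells. Nothing in the labels ties each replicate to a separate mouse, so the p-values cover the spread among the samples, which may be technical.

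Potassium channels let potassium leave or enter the cell and so set the resting potential and end the action potential. The voltage-gated Kv channels open on depolarisation, the inward rectifiers hold the membrane near the potassium equilibrium, the two-pore channels carry leak current, and the calcium-activated channels couple calcium to membrane potential. Hcn channels open on hyperpolarisation and pass both sodium and potassium. In skeletal muscle, inward rectifiers of the transverse tubules and ATP-sensitive channels are known to govern excitability and fatigue, and the small-conductance channel encoded by Kcnn3 is known from rodents to appear after denervation.

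Promoter sequence is shown for the 3 members with the largest rises, Kcne1l, Kcnn3 and Kcnk5, and for the member with the largest fall, Kcng4, since the study concerns a chromatin protein that is placed around transcription starts. Each window runs over 300 bases of the RefSeq annotation of the GRCm38.p6 build, 250 before and 50 after the annotated start, and reads 5′ to 3′ on the gene's strand. The windows lie at chrX:142306149-142306448 on the minus strand for Kcne1l, at chr3:89519914-89520213 on the plus strand for Kcnn3, at chr14:20181733-20182032 on the minus strand for Kcnk5 and at chr8:119635631-119635930 on the minus strand for Kcng4. Capitals mark every match to CANNTG, the E-box bound by basic helix-loop-helix proteins such as the myogenic factors.
Kcne1l: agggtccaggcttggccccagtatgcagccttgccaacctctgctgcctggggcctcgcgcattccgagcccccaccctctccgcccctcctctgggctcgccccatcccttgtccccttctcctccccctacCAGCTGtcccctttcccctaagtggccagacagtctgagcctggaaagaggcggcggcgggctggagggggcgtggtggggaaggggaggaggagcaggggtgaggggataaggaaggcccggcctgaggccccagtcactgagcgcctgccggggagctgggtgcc
Kcnn3: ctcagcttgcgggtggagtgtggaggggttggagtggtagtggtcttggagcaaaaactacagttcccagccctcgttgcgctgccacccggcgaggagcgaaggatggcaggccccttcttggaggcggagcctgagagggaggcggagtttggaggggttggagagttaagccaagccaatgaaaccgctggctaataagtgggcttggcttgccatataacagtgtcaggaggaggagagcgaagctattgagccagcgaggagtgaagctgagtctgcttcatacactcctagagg
Kcnk5: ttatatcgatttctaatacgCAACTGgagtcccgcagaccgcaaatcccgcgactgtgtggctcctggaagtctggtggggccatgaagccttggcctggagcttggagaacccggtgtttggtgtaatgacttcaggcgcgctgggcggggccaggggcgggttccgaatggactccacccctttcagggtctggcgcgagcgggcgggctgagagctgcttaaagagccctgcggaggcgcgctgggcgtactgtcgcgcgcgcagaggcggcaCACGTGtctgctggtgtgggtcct
Kcng4: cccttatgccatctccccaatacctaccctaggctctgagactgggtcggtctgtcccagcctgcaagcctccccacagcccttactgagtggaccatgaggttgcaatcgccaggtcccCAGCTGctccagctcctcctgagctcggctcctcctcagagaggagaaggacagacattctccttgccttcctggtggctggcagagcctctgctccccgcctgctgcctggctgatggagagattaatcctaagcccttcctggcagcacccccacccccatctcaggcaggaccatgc
The Kcne1l and Kcng4 windows each held 1 E-box, in both the form CAGCTG, the Kcnk5 window held 2, and the Kcnn3 window held 0. CANNTG and CAGCTG both read the same on either strand, and CAGCTG is one form of CANNTG. Of all 32851 windows, 72.3% held CANNTG and 16.3% held CAGCTG. Windows were found for 53 of the 74 member names. Of the 76 member windows, 57 held CANNTG (75%) and 21 held CAGCTG (27.6%). Of the 21 windows of 13 risen members, 13 held CANNTG (61.9%) and 5 held CAGCTG (23.8%). The 3 windows of 2 fallen members, Kcnn1 and Kcng4, all held both. Windows of the same gene are not separate cases. A MEF2 site, searched by its consensus on both strands, was in 0 of the 76 member windows and in 1.86% of all windows. These matches describe the letters in the windows and no binding was measured.

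The targeted genes lay lower in each KO library than in any WT library. H2afz had 5.15, 4.14 and 4.51 CPM (counts scaled to a common library total) in the KO libraries, against 18.5, 15.9 and 15.2 CPM in the WT libraries. H2afv had 4.06, 3.77 and 4.57 CPM in KO, against 19.1, 16.0 and 20.7 CPM in WT. Total counts ran between 62318774 and 102919416 in KO libraries, and between 35456883 and 88477775 in WT libraries. The first principal component separated the groups, and on the second WT replicates 2 and 3 lay on opposite sides, at 44.2 and -34.7, of the other libraries. Fibre markers marked the tissue as muscle in all libraries, with a summed level of 124006 to 158852 CPM in KO and 177247 to 196243 CPM in WT for Acta1, Ckm, Mylpf and Ttn.

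More potassium channel genes rose than fell in KO muscle. Of the 66 tested, 16 rose (24.2%) and 4 fell (6.06%), where rose and fell mean an adjusted p below 0.05 in edgeR's quasi-likelihood test, and 46 did not pass. The background over all 16628 genes tested was 13.5% risen and 12.4% fallen. Counts of calls in single subfamilies and lists below stand against the same background. The median log2 fold change of KO over WT was 0.34 over the members and 0.01 over all genes. Every KO library lay above every WT library for 24 members (36.4%), against 21.6% of all genes, and below for 5 members (7.58%), against 21.0% of all genes. Both identifiers of Kcnb2 count among the 24 with KO above WT. No test of the list as a whole was made. Without KO replicate 1, 12 of 67 tested members rose and 2 fell, against 8.32% risen and 6.99% fallen of all genes. Leaving out WT replicate 1 gave 13 of 68 members risen and 4 fallen, against 9.01% and 7.25% of all genes. Leaving out WT replicate 3 gave 12 of 68 risen and 3 fallen, against 8.57% and 8.09% of all genes. With library size alone in place of TMM scaling, 22 of 66 tested members rose and 3 fell, against 20.6% and 6.19% of all genes. Risen genes then made up 76.8% of all calls, against 52.2% with TMM scaling. The median over all genes shifted to a log2 fold change of 0.22. Since RNA came from whole muscle, fewer cells of a type and less RNA per cell cannot be told apart in any of these differences. The comparison deposited by the authors calls 15 members higher and 6 lower in KO, and 14 and 4 of these have the same call here.

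**Figure D1:**
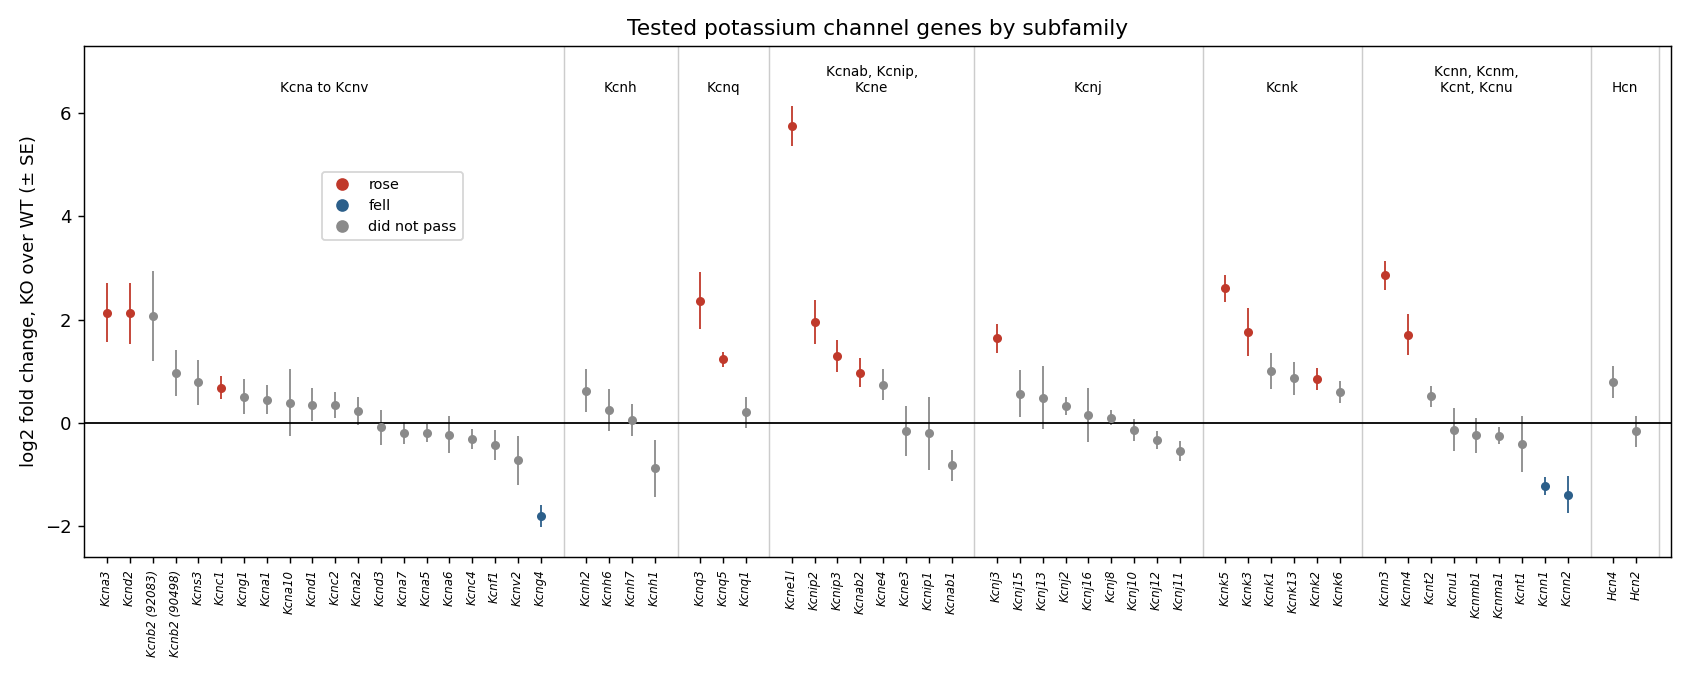
Log2 fold change of KO over WT (vertical axis) for 61 of the tested potassium channel genes, grouped by subfamily along the horizontal axis, with bars of 1 standard error. Red points rose, blue points fell and grey points did not pass an edgeR adjusted p of 0.05, and Kcne1l stands highest at 5.74 while Kcng4 is lowest at -1.80.

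Levels of different genes were compared on the deposited signal per kb of gene length. The highest in KO muscle were Kcnc1, Kcnc4, Kcna7, Kcnj11, Kcnq5 and Kcnj12, and the highest in WT muscle were Kcnc4, Kcna7, Kcnj11, Kcnj12, Kcng4 and Kcnc1. The 10 genes with the highest WT level held 74.8% ± 3.02 of the summed signal of all members in KO and 81.6% ± 2.25 in WT (SD, n = 3 each). Of those 10 genes, Kcnc1 and Kcnq5 rose, Kcng4 fell and 7 did not pass. The summed signal per kb of all members was 15968, 12930 and 16225 in the KO libraries, against 16538, 13894 and 14399 in the WT libraries. The groups overlapped in this sum, whereas the places of single genes differed: Kcne1l stood in place 8 in KO and 44 in WT, and Kcng4 in place 13 in KO and 5 in WT.

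**Figure D2:**
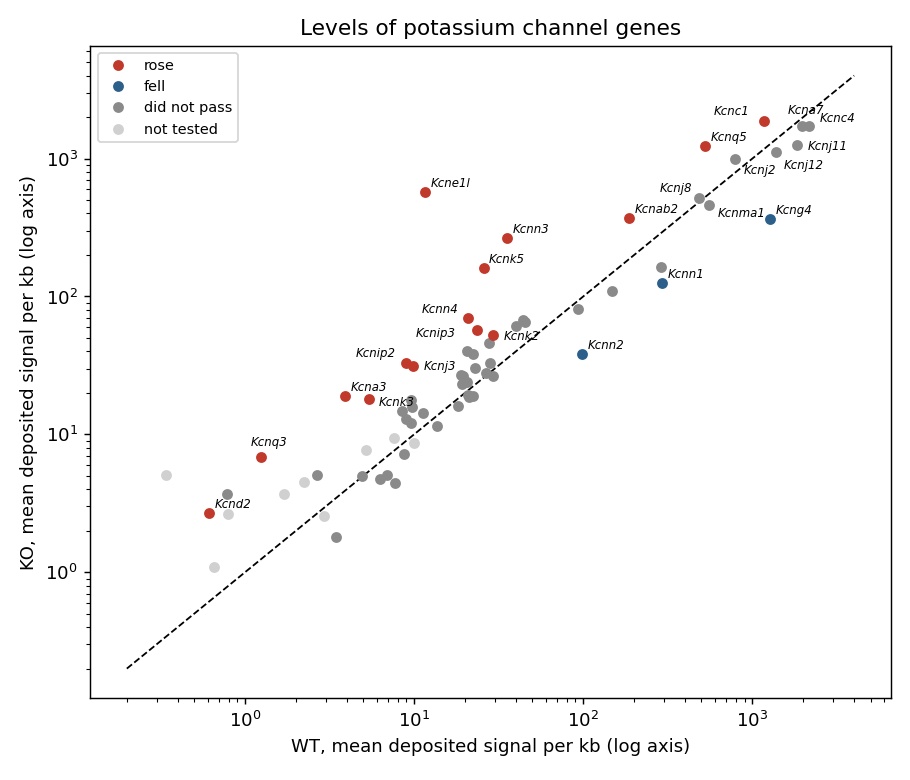
Mean deposited signal per kb of gene length in KO (vertical, log axis) against WT (horizontal, log axis) for 70 potassium channel genes, each point the mean of 3 libraries per group and the dashed line equality. Kcne1l, at 568 in KO and 11.6 in WT, lies farthest above the line, and Kcng4, at 365 in KO and 1279 in WT, is the most abundant gene that fell.

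Among the pore-forming Kv subunits of the Kcna to Kcnv families, 3 of 22 tested genes rose (13.6%), 2 fell (9.09%) and 17 did not pass. The shares over all genes were 13.5% risen and 12.4% fallen. The median log2 fold change of these Kv genes was 0.29. Kcng4 encodes Kv6.4, a subunit that is silent alone and modifies other Kv channels. It had 11.2, 13.9 and 18.8 CPM in KO, against 55.7, 57.3 and 39.9 CPM in WT. The groups were far apart, and the level was 3.49-fold lower in KO (log2 fold change -1.80, SE 0.21, edgeR adjusted p = 0.00029).

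Kcnc1 encodes Kv3.1, a fast delayed rectifier best known from fast-spiking neurons. It had 83.4, 53.5 and 87.7 CPM in KO, against 58.2, 35.3 and 46.8 CPM in WT. KO replicate 2 lay below WT replicate 1, so the groups overlapped, and the rise was 1.60-fold (log2 fold change 0.68, SE 0.22, edgeR adjusted p = 0.0455). It no longer passed without KO replicate 1 (edgeR adjusted p = 0.120), KO replicate 3 (0.110), WT replicate 2 (0.151) or WT replicate 3 (0.117), or with limma-voom (adjusted p = 0.0513). Kcnc4, which encodes the inactivating channel Kv3.4 and had the highest mean signal of the Kv genes, had a signal per kb of 1737 ± 345 in KO and 2155 ± 407 in WT (SD, n = 3 each), and its log2 fold change of -0.31 (SE 0.19) did not pass. As a share of the summed Kcnc signal per kb, Kcnc1 made up 49.6% to 53.8% in KO libraries and 32.4% to 36.6% in WT libraries, and these ranges did not overlap. With 3 libraries a group an exact two-sided permutation test of a share cannot go below p = 0.1, so none of the shares given here could pass.

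The other 2 risen genes of these families were scarce. Kcna3, the Kv1.3 channel known from T lymphocytes, had 68, 41 and 28 counts in KO and 7, 1 and 14 in WT. That is 0.668, 0.631 and 0.263 CPM in KO, against 0.0860, 0.0285 and 0.210 CPM in WT. The groups did not overlap, with KO replicate 3 close to WT replicate 3 (log2 fold change 2.13, SE 0.58, edgeR adjusted p = 0.0204). The edgeR adjusted p was 0.0772 without KO replicate 1, 0.0614 without KO replicate 2 and 0.0773 without WT replicate 1, and without WT replicate 3 the log2 fold change was 2.95 with an edgeR adjusted p of 0.0207. The 7 T and B cell markers summed to 1.19 to 2.57 CPM in KO and 0.171 to 0.898 CPM in WT. Cd3e had 0 counts in WT replicates 2 and 3, Cd3g and Cd79a had 0 in WT replicate 2 and Cd4 had 0 in WT replicate 3. Of the 4 of these markers that were tested, Cd4 (log2 fold change 4.59, SE 0.77) and Cd3g (3.77, SE 0.76) rose. The part of such cells in the Kcna3 result was not tested. The neighbour of Kcna3 on chromosome 3, Kcna2, which encodes Kv1.2, had a log2 fold change of 0.23 (SE 0.27) and did not pass.

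Kcnd2 encodes Kv4.2, a channel of fast A-type current that works with Kcnip and Dpp subunits. It had 17, 11 and 26 counts in KO against 5, 2 and 1 in WT, or 0.167, 0.169 and 0.244 CPM in KO against 0.0614, 0.0570 and 0.0150 CPM in WT. Every KO library was higher, at very low counts (log2 fold change 2.12, SE 0.58, edgeR adjusted p = 0.0221). The adjusted p was 0.0875 with DESeq2, and in edgeR it was 0.0531 without KO replicate 1, 0.0781 without KO replicate 3 and 0.0880 without WT replicate 3. Its relatives Kcnd1 (log2 fold change 0.35, SE 0.32) and Kcnd3 (-0.09, SE 0.33) did not pass. The remaining Kv1 genes, Kcna1, Kcna2, Kcna5, Kcna6, Kcna7 and Kcna10, did not pass either, with log2 fold changes between -0.23 and 0.45. Kcna7, the most abundant of them, had a signal per kb of 1717 ± 335 in KO and 1968 ± 520 in WT (SD, n = 3 each).

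None of the 4 tested of 6 ether-a-go-go (Kcnh) genes passed, and their median log2 fold change was 0.15. Kcnh2, the hERG channel that repolarises heart muscle and the Kcnh gene with the highest mean signal, had 0.638, 0.539 and 0.920 CPM in KO and 0.233, 0.456 and 0.688 CPM in WT (log2 fold change 0.62, SE 0.41, edgeR adjusted p = 0.300). Kcnh5 had 28, 37 and 3 counts in KO against 0, 1 and 2 in WT, so that KO replicates 1 and 2 stood above all others and KO replicate 3 near WT. Since only those 2 libraries exceeded the filter's limit, it was not tested. It passed as risen in 3 alternatives, with an edgeR adjusted p of 0.00035 without a filter and 0.00508 without KO replicate 3, and an adjusted p of 0.0116 with DESeq2.

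Of the 5 Kcnq genes, which encode the Kv7 channels of the M-current, 2 rose (40%, against 13.5% of all genes) and none fell. Kcnq5, the most abundant of the 5 in KO, had 49.6, 45.9 and 45.0 CPM in KO, against 21.7, 17.1 and 21.0 CPM in WT. The libraries within each group lay close together, and the rise was 2.35-fold (log2 fold change 1.23, SE 0.14, edgeR adjusted p = 0.00026). Kcnq5 made up 67.6% ± 3.66 of the summed Kcnq signal per kb in KO and 46.9% ± 3.29 in WT (SD, n = 3 each). This share did not overlap between the groups, and the summed Kcnq signal per kb was 1823 ± 120 in KO and 1114 ± 60.6 in WT. Kcnq3, which encodes an M-current subunit of neurons, was at 17, 15 and 39 counts in KO against 4, 1 and 4 in WT. All KO values were higher (log2 fold change 2.36, SE 0.55, edgeR adjusted p = 0.0109), but Kcnq3 held at most 0.535% of the summed Kcnq signal per kb in any library.

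**Figure D3:**
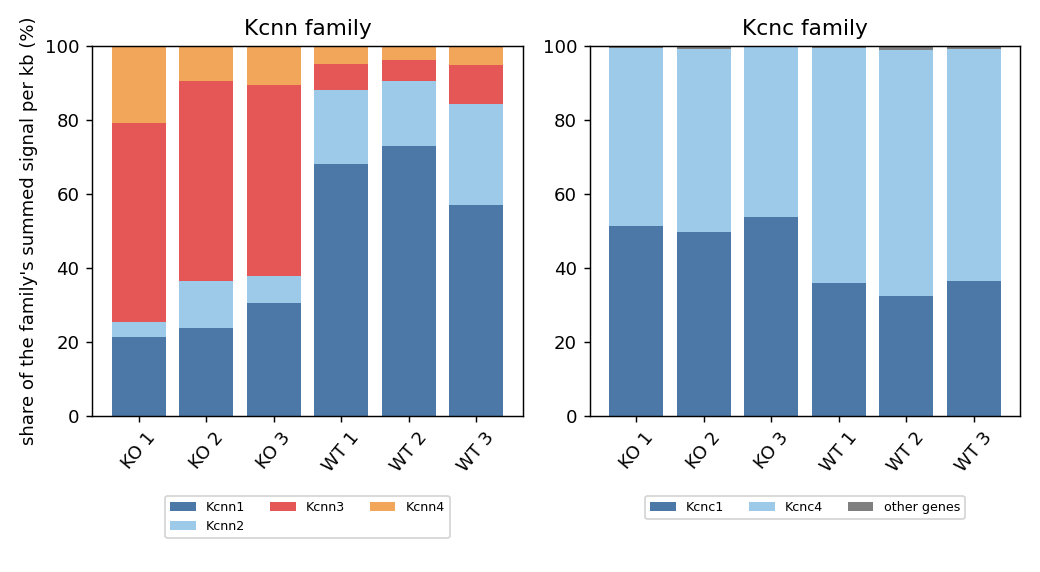
Share of each gene in the summed signal per kb (vertical axis, percent) of the Kcnn and Kcnc families in each library, the 3 KO libraries left of the 3 WT libraries. In the Kcnn panel Kcnn3 takes 51.7% to 54.2% in KO and 5.59% to 10.7% in WT.

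The accessory subunits held the largest single change. Of the 8 tested of 10 Kcnab, Kcnip and Kcne genes, 4 rose (50%, against 13.5% of all genes) and none fell. Their median log2 fold change was 0.85. Kcne1l, also called Kcne5, encodes a small membrane protein that associates with Kv channels and is known to suppress the current of Kcnq1. It had 1254, 590 and 1153 counts in KO against 5, 11 and 19 in WT, or 12.3, 9.08 and 10.8 CPM in KO against 0.0614, 0.313 and 0.284 CPM in WT. The lowest KO library was far above the highest WT library, and the level was 53.6-fold higher in KO (log2 fold change 5.74, SE 0.39, edgeR adjusted p = 1.39e-05). Its usual partner Kcnq1 did not pass (log2 fold change 0.21, SE 0.30). Kcne3, a subunit paired with Kv3.4 in skeletal muscle, had a log2 fold change of -0.16 (SE 0.48), and Kcne4 of 0.74 (SE 0.30, edgeR adjusted p = 0.0971), and neither passed.

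Kcnip2 and Kcnip3 encode calcium-binding partners of the Kv4 channels. Kcnip2 was scarce, with 36, 26 and 46 counts in KO and 6, 5 and 7 in WT. That is 0.353, 0.400 and 0.432 CPM in KO, against 0.0737, 0.142 and 0.105 CPM in WT. The groups did not overlap (log2 fold change 1.95, SE 0.42, edgeR adjusted p = 0.00767). Kcnip3 had 2.30, 1.20 and 1.36 CPM in KO, against 0.528, 0.684 and 0.778 CPM in WT, with KO replicate 1 highest (log2 fold change 1.30, SE 0.31, edgeR adjusted p = 0.0120). That call was lost without KO replicate 1 (edgeR adjusted p = 0.0583) and without WT replicate 1 (0.0523). Kcnab2, a cytoplasmic beta subunit of Kv1 channels, had 4.43, 2.66 and 2.21 CPM in KO, against 1.93, 1.57 and 1.23 CPM in WT. Every KO library was higher, KO replicate 1 most of all (log2 fold change 0.97, SE 0.29, edgeR adjusted p = 0.0297), and the edgeR adjusted p was 0.126 without KO replicate 1, 0.0689 without WT replicate 2 and 0.120 without WT replicate 3. The other beta subunit tested, Kcnab1, had 3.93, 6.80 and 2.85 CPM in KO and 6.31, 7.64 and 9.98 CPM in WT and missed the threshold (log2 fold change -0.83, SE 0.29, edgeR adjusted p = 0.0597).

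**Figure D4:**
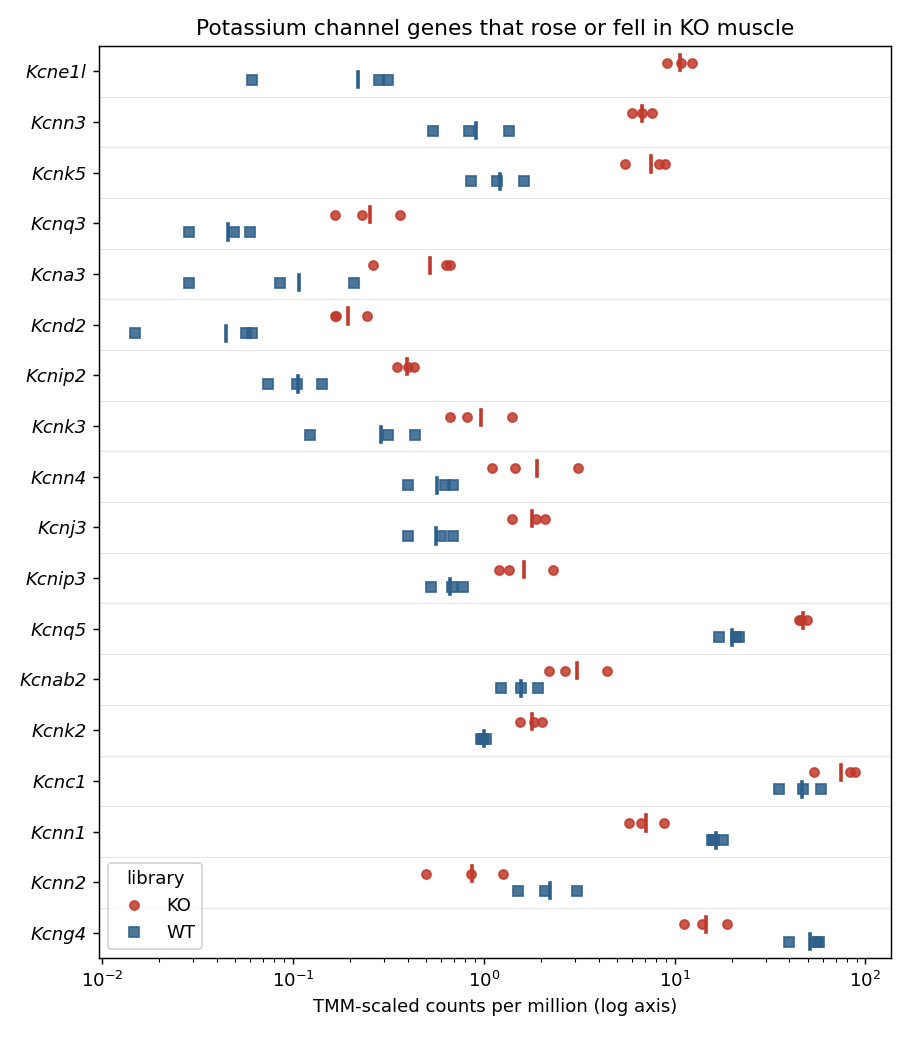
TMM-scaled CPM (horizontal, log axis) in every library for 18 of the potassium channel genes that rose or fell, with KO libraries as red circles above WT libraries as blue squares and vertical ticks at the group means. The groups overlap for Kcnc1, where KO reaches down to 53.5 and WT up to 58.2, and are apart for the other 17.

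The inward rectifiers, which include the main resting channels of the fibre membrane, gave 1 call. Of 9 tested Kcnj genes, 1 rose (11.1%, against 13.5% of all genes) and 8 did not pass, with a median log2 fold change of 0.15. Kcnj11 encodes Kir6.2, the pore of the ATP-sensitive channel of muscle, and had the highest mean signal of the Kcnj genes. It had 61.9, 40.0 and 60.5 CPM in KO, against 89.6, 74.4 and 73.1 CPM in WT. Every KO library was lower, but the difference did not pass (log2 fold change -0.55, SE 0.19, edgeR adjusted p = 0.0508). It passed in 5 of 15 alternatives, with an adjusted p between 0.0230 and 0.249 over all of them. Kcnj8, which encodes the other ATP-sensitive pore Kir6.1, had a log2 fold change of 0.10 (SE 0.15), and the sulfonylurea receptors Abcc9 (-0.09, SE 0.15) and Abcc8 (0.01, SE 0.25) did not pass either. Kcnj8 made up 25.4% to 36.7% of the summed signal per kb of both pore genes in KO and 19.1% to 23.5% in WT.

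Kcnj2 and Kcnj12 encode Kir2.1 and Kir2.2, the strong inward rectifiers of the fibre membrane. Kcnj2 had 63.9, 79.7 and 83.0 CPM in KO and 73.3, 56.8 and 49.9 CPM in WT (log2 fold change 0.33, SE 0.18, edgeR adjusted p = 0.195). Kcnj12 had 40.8, 29.97 and 44.1 CPM in KO and 47.6, 54.8 and 41.5 CPM in WT (log2 fold change -0.32, SE 0.17, edgeR adjusted p = 0.201). The groups overlapped for both genes. Kcnj3 encodes Kir3.1, a channel opened by G proteins that is known to need a partner such as Kcnj5 to reach the membrane. It had 1.41, 1.88 and 2.08 CPM in KO, against 0.688, 0.399 and 0.599 CPM in WT. All KO values were higher (log2 fold change 1.63, SE 0.28, edgeR adjusted p = 0.00231). Kcnj5 had only 1, 0 and 10 counts in KO and 1, 0 and 0 in WT. A long noncoding RNA annotated in GENCODE M21 on the opposite strand covers 31.1% of the exon bases of Kcnj3.

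Among the two-pore genes, 6 of 7 were tested, and all 6 had every KO library above every WT library. The background for that pattern was 21.6% of all genes. Of the 6 tested, 3 rose (50%, against 13.5% of all genes), and the median log2 fold change of the 6 was 0.93. Kcnk5, which encodes TASK-2, an alkali-activated leak channel, had 8.86, 5.53 and 8.32 CPM in KO, against 1.62, 0.855 and 1.17 CPM in WT. The groups were far apart and the level was 6.09-fold higher in KO (log2 fold change 2.61, SE 0.27, edgeR adjusted p = 0.000125). Kcnk3, which encodes the acid-sensitive TASK-1, had 0.668, 0.816 and 1.41 CPM in KO, against 0.123, 0.313 and 0.434 CPM in WT, with KO replicate 3 highest (log2 fold change 1.76, SE 0.47, edgeR adjusted p = 0.0189). The edgeR adjusted p was 0.0741 without KO replicate 3 and 0.0601 without WT replicate 1. Kcnk2, which encodes the stretch- and lipid-sensitive TREK-1, had 1.55, 2.02 and 1.83 CPM in KO, against 0.995, 1.03 and 0.973 CPM in WT. The WT libraries lay close together below KO (log2 fold change 0.85, SE 0.22, edgeR adjusted p = 0.0174), and the call was lost without WT replicate 1 (edgeR adjusted p = 0.0642) or WT replicate 3 (0.0542). Kcnk1 (log2 fold change 1.00, SE 0.35), Kcnk6 (0.59, SE 0.21) and Kcnk13 (0.86, SE 0.32) did not pass, at edgeR adjusted p of 0.0539, 0.0575 and 0.0733. Of 15 alternatives, Kcnk1 passed as risen in 6, Kcnk6 in 5 and Kcnk13 in 1. An annotated antisense transcript covers 12.2% of the exon bases of Kcnk2.

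The Kcnn, Kcnm, Kcnt and Kcnu genes, grouped as 1 subfamily, numbered 11, of which 9 were tested. Of these 9, 2 rose (22.2%) and 2 fell (22.2%), against 13.5% and 12.4% of all genes. Their median log2 fold change was -0.24. All 4 Kcnn genes, which encode the small- and intermediate-conductance calcium-activated channels, passed the test, 2 in each direction. Kcnn3, which encodes SK3, had 7.60, 5.99 and 6.77 CPM in KO, against 0.835, 0.541 and 1.36 CPM in WT. The groups were far apart and the level was 7.23-fold higher in KO (log2 fold change 2.85, SE 0.28, edgeR adjusted p = 0.000105). Kcnn1, which encodes SK1, had 6.68, 5.77 and 8.82 CPM in KO, against 17.8, 15.7 and 16.1 CPM in WT. Every KO value was lower, by 2.33-fold on the fitted means (log2 fold change -1.22, SE 0.17, edgeR adjusted p = 0.000913). Kcnn2, which encodes SK2, had 0.501, 1.26 and 0.854 CPM in KO, against 2.10, 1.51 and 3.10 CPM in WT. The groups did not overlap (log2 fold change -1.39, SE 0.36, edgeR adjusted p = 0.0161), and the call was lost without KO replicate 1 (edgeR adjusted p = 0.0542) and without WT replicate 3 (0.0765).

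The sum of the family did not differ beyond its spread. The summed Kcnn signal per kb was 558, 430 and 506 in KO and 462, 379 and 498 in WT, with overlapping groups. Kcnn3 made up 53.3% ± 1.34 of it in KO and 7.77% ± 2.62 in WT, Kcnn1 25.1% ± 4.74 in KO and 66.0% ± 8.20 in WT, and Kcnn2 8.05% ± 4.46 in KO and 21.6% ± 5.08 in WT (SD, n = 3 each). None of these 3 shares overlapped between the groups. On a list of genes known to rise in denervated fibres all 7 rose, against 13.5% of all genes. Myog, Chrna1, Chrng, Ncam1, Myh3 and Myh8 were among them. That list was chosen with earlier results of these data known, so its count is no independent evidence. Its median log2 fold change was 2.70, and its summed level was 203 to 237 CPM in KO and 23.8 to 39.0 CPM in WT. Myog, a myogenic transcription factor, had 17.6, 14.9 and 18.4 CPM in KO against 2.43, 3.28 and 2.32 CPM in WT. The part of denervation in the Kcnn3 result was not tested.

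Kcnn4 encodes the intermediate-conductance channel known from red cells, lymphocytes, macrophages and fibroblasts. It had 3.13, 1.11 and 1.46 CPM in KO, against 0.626, 0.399 and 0.688 CPM in WT, with KO replicate 1 highest (log2 fold change 1.71, SE 0.39, edgeR adjusted p = 0.0101). Without KO replicate 1 and WT replicate 2 together the log2 fold change was 0.97 and the call was lost (edgeR adjusted p = 0.0902). Of the 6 macrophage markers, Emr1 (log2 fold change 1.52, SE 0.26), Cd68 (1.51, SE 0.36) and Csf1r (1.16, SE 0.22) rose and 3 did not pass. Their summed level was 89.5 to 131 CPM in KO and 35.9 to 78.3 CPM in WT. Of the 4 fibroblast markers, Dcn, Lum and Pdgfra rose and Col1a1 did not pass, and their summed level was 541 to 1143 CPM in KO and 341 to 511 CPM in WT. The part of these cells in the Kcnn4 result was not tested.

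The large-conductance and sodium-activated genes gave no call. Kcnma1, the pore of the BK channel and the calcium-activated gene with the highest mean signal, had 21.3, 19.7 and 27.5 CPM in KO and 26.8, 30.2 and 24.5 CPM in WT (log2 fold change -0.25, SE 0.16, edgeR adjusted p = 0.283). Kcnmb1, its smooth muscle beta subunit, stood at -0.24 (SE 0.34) on the same scale. The sodium-activated Kcnt2 had 2.86, 4.02 and 2.76 CPM in KO against 2.19, 2.25 and 2.29 CPM in WT, without overlap, and missed the threshold (log2 fold change 0.51, SE 0.21, edgeR adjusted p = 0.0896).

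Hcn4, the pacemaker gene of the heart and the Hcn gene with the highest mean signal, had 2.35, 2.02 and 1.71 CPM in KO, against 1.39, 1.54 and 0.629 CPM in WT. The groups were apart, but it did not pass (log2 fold change 0.79, SE 0.31, edgeR adjusted p = 0.0871). Of the 3 tested neuron markers Snap25 rose (log2 fold change 2.13, SE 0.54), and the summed level of all 5 was 1.91 to 2.83 CPM in KO and 2.16 to 2.45 CPM in WT. Of the 6 Schwann cell markers Ngfr rose (log2 fold change 1.05, SE 0.34), and their sum was 23.2 to 28.7 CPM in KO and 14.6 to 22.8 CPM in WT. The part of nerve cells in the Kcnd2 and Kcnq3 results was not tested. Kcnrg, a gene with a domain like that of Kv channels that forms no pore, had 9, 5 and 12 counts in KO and 7, 2 and 3 in WT and was not tested.

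Genes of channel partners, without a Kcn or Hcn name, were taken from a separate list. It includes Tmem175, Tmem38a and Tmem38b, which encode channels themselves and did not pass. Of its 24 tested genes, 2 rose (8.33%), 3 fell (12.5%) and 19 did not pass, against 13.5% risen and 12.4% fallen of all genes. Their median log2 fold change was -0.20. Dpp6, an auxiliary subunit of Kv4 channels, had 3.61, 4.09 and 3.49 CPM in KO, against 1.30, 1.03 and 1.44 CPM in WT. All KO values were higher (log2 fold change 1.56, SE 0.20, edgeR adjusted p = 0.000529), so that genes of Kv4 channels that rose were Kcnd2, Kcnip2, Kcnip3 and Dpp6, while Kcnd1, Kcnd3, Kcnip1 (log2 fold change -0.20, SE 0.70) and Dpp10 (1.64, SE 0.62, edgeR adjusted p = 0.0753) did not pass. Lrrc55, an auxiliary gamma subunit of the BK channel, had 0.962, 1.23 and 0.526 CPM in KO, against 0.0737, 0.285 and 0.0748 CPM in WT (log2 fold change 2.83, SE 0.55, edgeR adjusted p = 0.00427). Calm3 (log2 fold change -0.87, SE 0.17), which encodes calmodulin, the calcium sensor of the Kcnn and Kcnq channels, fell, and Calm2 did not pass (-0.50, SE 0.17, edgeR adjusted p = 0.0544). Dlg1, a scaffold that clusters Kv1 and Kir2 channels, fell by 0.72 on the log2 scale (SE 0.16).

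A list of the sodium pump, its FXYD regulators, the cation-chloride transporters and their kinases Wnk1 and Stk39 held 20 gene names under 21 identifiers, because Wnk1 is listed under 2. Of these 21, 6 rose (28.6%) and 1 fell (4.76%), against 13.5% and 12.4% of all genes. Their median log2 fold change was 0.25. Fxyd6, a regulator of the pump, had 97.3, 69.3 and 96.0 CPM in KO, against 11.1, 11.3 and 17.9 CPM in WT. The groups were far apart (log2 fold change 2.70, SE 0.22, edgeR adjusted p = 3.92e-05). Atp1b4 (log2 fold change 1.75, SE 0.20), Atp1b2 (0.83, SE 0.14), Slc12a4 (0.72, SE 0.20) and Fxyd5 (0.70, SE 0.21) rose as well. Slc12a2, the sodium-potassium-chloride importer, had 95.3, 142 and 135 CPM in KO, against 190, 219 and 199 CPM in WT, and fell (log2 fold change -0.71, SE 0.18, edgeR adjusted p = 0.0147).

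The remaining lists of cell markers covered endothelial cells, smooth muscle and pericytes, satellite cells and fibres. Vwf fell (log2 fold change -0.67, SE 0.15) and the other 5 endothelial markers did not pass. Cspg4 rose (0.82, SE 0.23) and Cnn1 fell (-1.17, SE 0.38) among 7 markers of smooth muscle and pericytes. None of the 4 satellite cell markers and none of the 4 fibre markers passed. For 3 of the 4 fibre markers every KO library lay below every WT library, a pattern held by 21.0% of all genes tested. The 4 fallen members and Kcnj11 had the same pattern (7.58% of tested members). The part of fibre RNA in their results was not tested.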

How the data were processed

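RNA was extracted from frozen tibialis anterior, and stranded total RNA libraries were made after removal of ribosomal RNA, per the labels' protocols. Tools listed in the submitters' processing notes are HTSeq 0.6.1, TopHat2 2.0.14, Bowtie and bcl2fastq 2.17.1.14, and the build listed there is mm9. Neither the annotation nor the strand setting used for counting is given in the sources used here, so reads of overlapping antisense genes may not be separated. The authors deposited raw read counts per gene, not normalized, per the file headers. They also deposited a signal that the file headers describe as normalized and per kb of gene length. When counts were divided by it and by median-of-ratios factors, the result was 1 length per gene (relative spread at most 9.39e-15 over 18396 genes). The authors' deposited log2 fold change, p-value and adjusted p-value come with no tool named in the sources used here, and served only for the number of shared calls.

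KO was set against WT by the quasi-likelihood F test of edgeR 4.0.16 (R 4.3.3) after TMM scaling, with no covariate and no robust estimation. Low genes were removed with filterByExpr (minimum count 10, minimum total 15), which left 16628 genes, and p-values were adjusted over these by the Benjamini-Hochberg method. Each SE was obtained as the absolute log2 fold change over the root of F, and CPM are TMM-scaled. On simulated counts, where 200 genes were changed in KO against WT, 58% of changes of log2 1 and 94.9% of changes of log2 2 were recovered when 16232 genes were tested, with 15 false calls.

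The members and lists were chosen with earlier results of these data known. Named genes are all called members, the member with the highest mean signal in each subfamily, those next to the limit of 20 counts, both targeted genes and, from each other list, at most 6 called genes per direction. Other genes were chosen after their values were seen, and some of the genes the rule takes are not reported here. Same-numbered KO and WT libraries deviated together only weakly (correlations of 0.060, 0.015 and 0.063). Alternatives used other scalings and filters, DESeq2 1.42.0, limma-voom (limma 3.58.1), robust estimation, a block and left-out libraries. Figures were drawn with matplotlib 3.10.9.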

Additional observations from a re-analysis of the deposited data

How the results depend on the processing

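No potassium channel gene that rose or fell changed direction in any alternative run. Kcne1l, Kcnn3, Kcnk5, Kcnip2, Kcnj3, Kcnq5, Kcnq3, Kcnn1 and Kcng4, 9 in all, passed in every alternative that gave a value, and the other 11 were lost in at least 1. Leaving out each library in turn gave 12 to 15 members risen and 2 to 4 fallen, and 1391 to 2321 of all genes risen and 1168 to 2189 fallen. Without WT replicate 2 and KO replicate 1 together, 10 of 64 tested members rose and 3 fell. Of all genes 1113 rose (6.70%) and 977 fell (5.88%) in that run. With library size alone, 3418 of all genes rose and 1030 fell; that scaling shifts all fold changes upward, since the median over all genes was 0.22 in place of 0.01. With relative log expression factors 16 of 66 tested members rose and 4 fell, against 13.5% and 12.4% of all genes. DESeq2 gave 16 and 6 of 72, against 12.9% and 13.1%. Limma-voom gave 16 and 6 of 66, against 12.6% and 12.7%. Robust estimation gave 17 and 5 of 66, against 13.5% and 12.6%. No filter gave 19 and 6 of 75, against 9.52% and 8.16%. The stricter filter gave 13 and 4 of 52, against 15.6% and 13.2%. With the replicate block, 18 members rose and 6 fell, all 16 and 4 calls were kept and 4 were added (Kcnab1, Hcn4, Kcnk6 and Kcnj11), and 2457 of all genes rose and 2236 fell; the labels do not say that a shared number marks a shared litter or day. Deviations of KO and WT libraries correlated between -0.078 and 0.063. KO replicate 2 was nearly level with WT replicates 2 and 3 (0.0154 and 0.0153). Values this close to none cannot tell whether a shared number marks a pair. Members that did not pass or were not tested passed in some alternatives, among them Kcnk1 in 6 of 15, Kcnk6, Kcnab1 and Kcnj11 in 5 each and Kcnh5 in 3. Depth limits the scarce members: Kcnq3, Kcnd2, Kcna3 and Kcnip2 rest on 1 to 14 counts per WT library.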
